A study of Mus musculus with 24 samples.

Results

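Interferon-stimulated and MHC genes were followed in the livers of 24 mice: 79 protein-coding genes of the 27802 in the deposited tables. They were chosen by name, from the families Ifit, Oas, Gbp, Iigp, Irgm, Isg, Irf and H2- (the mouse MHC), with at least 10 reads summed over all libraries. Of 83 names that matched, 3 were not protein coding and 1 had fewer than 10 reads. By role, the members were 9 interferon regulatory factors (IRF), 2 ISG genes, 6 IFIT, 8 OAS, 7 IFITM, 11 guanylate-binding proteins (GBP), 3 immunity-related GTPases (IRG), 2 classical class I genes, 17 non-classical class I (class Ib) genes, 9 class II genes and 5 that share only a name or a location with these families (H2-Ke6, Irf2bp1, Irf2bp2, Irf2bpl and Isg20l2). Enough reads for testing were held by 76 members. The other 3, H2-M10.6, H2-T3 and Ifitm7, were too low.

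The study asked how the loss of a hypothalamic neuron type alters whole-body energy balance, and the liver was sampled as a peripheral tissue. In ablated mice, an adeno-associated virus with a Cre-dependent caspase 3 had been injected into the arcuate nucleus of adults, so that AgRP neurons that carry the angiotensin receptor AT1R (Agtr1a) were killed. Mice lived at 22 °C or, near thermoneutrality, at 30 °C after surgery, and livers were frozen 2 weeks later. The sources used here do not say what control mice received.

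At 22 °C, 6 ablated mice (3 males, 3 females; Cre+ Halo+/-) were set against 6 controls (3 males, 3 females; 1 Cre+, 5 Cre-), all from the cross Ai39 x BAC-AT1A-Cre, where Ai39 carries a Cre-dependent light-driven pump. At 30 °C, 6 ablated mice (3 males, 3 females; all Cre+) were set against 6 controls (2 males, 4 females; 3 Cre+, 3 Cre-). There, ablated male 2 and ablated female 3 were Ai9 x BAC-AT1A-Cre, where Ai9 is a Cre-dependent fluorescent reporter, and ablated male 3, control male 1 and control female 3 were BAC-AT1A-Cre alone. Line thus differed between temperatures, and most controls lacked Cre while all ablated mice had it. The ablated cells are in the brain, so liver RNA gives no check of the ablation.

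Interferons are secreted proteins that bind receptors on nearly every cell and signal through JAK kinases and STAT factors. Type I and III interferons activate a complex that contains IRF9 and binds the interferon-stimulated response element (ISRE), whereas interferon gamma acts through gamma-activated sites (GAS). The induced genes block viral replication (IFIT, OAS, IFITM), attack the vacuoles of intracellular pathogens (GBP, IRG) and raise antigen presentation. Classical MHC class I is made by nearly all cells, hepatocytes included, while class II is made mainly by dendritic cells, macrophages and B cells under the coactivator CIITA, which acts at promoters with a Y box.

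The promoters of 4 members are shown as examples of the elements named above, the ISRE in a pair of IFIT genes and the Y box in a pair of class II genes. Each is the 200 bases before the annotated start, in the direction of the gene, from RefSeq on GRCm38.p6. Capitals in Ifit1 (chr19:34640689-34640888, plus strand) and Ifit3 (chr19:34583329-34583528, plus strand) mark matches to the ISRE core, which is GAAA followed by any 2 bases and GAAA again, here read as its reverse complement. Capitals in H2-Aa (chr17:34287824-34288023, minus strand) and H2-Eb1 (chr17:34305667-34305866, plus strand) mark the Y box core CTGATTGG.
Ifit1: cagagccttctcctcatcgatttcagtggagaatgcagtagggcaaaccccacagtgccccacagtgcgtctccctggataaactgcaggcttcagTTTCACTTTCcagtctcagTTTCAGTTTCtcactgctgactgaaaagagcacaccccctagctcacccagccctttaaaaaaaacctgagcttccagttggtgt
Ifit3: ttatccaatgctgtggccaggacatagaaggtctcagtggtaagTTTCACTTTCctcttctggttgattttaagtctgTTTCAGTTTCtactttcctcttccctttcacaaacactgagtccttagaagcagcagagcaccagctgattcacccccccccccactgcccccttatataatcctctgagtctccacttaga
H2-Aa: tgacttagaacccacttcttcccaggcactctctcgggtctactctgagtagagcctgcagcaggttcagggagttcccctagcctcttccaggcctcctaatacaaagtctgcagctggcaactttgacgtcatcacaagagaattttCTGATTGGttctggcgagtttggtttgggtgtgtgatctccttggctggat
H2-Eb1: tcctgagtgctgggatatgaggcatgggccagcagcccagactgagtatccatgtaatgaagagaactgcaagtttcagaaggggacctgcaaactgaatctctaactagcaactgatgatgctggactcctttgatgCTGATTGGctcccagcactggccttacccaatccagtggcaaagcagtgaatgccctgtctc

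Ifit1 and Ifit3 each held 2 ISRE matches, and H2-Aa and H2-Eb1 each held 1 Y box. A promoter entry was found for 63 of the 79 members. On either strand, the ISRE core occurred in 20 of the 63 (31.7%) against 2.65% of the 27025 promoters in the table. It was found in 5 of 5 GBP, 5 of 6 IFIT, 4 of 6 OAS and 2 of 2 IRG promoters, in 1 of 7 IFITM, 1 of 2 ISG and 2 of 12 class Ib promoters, and in 0 of 8 IRF, 0 of 2 classical class I and 0 of 8 class II promoters. The GAS core TTCNNNGAA, which reads the same on both strands, occurred in 9 of 63 (14.3%) against 6.38%, and the Y box in 10 of 63 (15.9%) against 4.11%, with 4 of 8 class II, 4 of 12 class Ib, 1 of 2 classical class I and 1 of 8 IRF promoters among them. H2-T23 held both an ISRE and a Y box. These matches describe letters in a window and are not evidence of binding.

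Reads in genes numbered 21691653 to 34851108 per library, of which the mitochondrial share was 7.53% to 37.3%. All 8 hepatocyte markers looked for were present, and their summed level ran from 70737 to 110092 CPM (reads scaled to a common library size) over the 24 libraries. The 30 °C control males numbered 2 and differed strongly from each other: without control male 2, which leaves control male 1 as the only male of its group, the genes called between temperatures in controls went from 7 to 1608. Leaving out either leaves an arm of 1 male, whose spread is then assumed to equal that of the other groups, so adjusted p-values from those fits show how far a value depends on the pair and are not tests of the condition. The H2 genes of the Q and T regions, the Gbp genes, the Oas1 genes and Ifit3 with Ifit3b are families of near-identical copies, so the reads of single members could have been split between copies. Another annotated gene overlapped 27 members, among them Gbp4, Gbp8 and Gbp9 on a shared strand, and the sources used here do not give the strandedness of the counting.

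Ranked by reads per length (FPKM, as deposited), the members spanned a wide range in liver. Ifitm3, an inhibitor of viral membrane fusion, was highest at 718 ± 149 FPKM (SD, n = 24), followed by H2-K1 at 556 ± 69.1 FPKM and H2-Q10, a secreted class Ib molecule made by hepatocytes, at 525 ± 80.8 FPKM. The mean ± SD ranges of H2-K1 and H2-Q10 overlapped, as did those of Ifitm3 and H2-K1, and the order of these genes was not tested. H2-D1 followed at 209 ± 38.0 FPKM and Ifitm2 at 130 ± 39.2 FPKM. These 5 were the members with a mean of 100 FPKM or more, 18 had 10 or more and 59 had 1 or more. The class II chains H2-Eb1 (15.3 ± 7.80 FPKM), H2-Ab1 (9.95 ± 4.71 FPKM) and H2-Aa (8.51 ± 4.75 FPKM) had large spreads relative to their means. So had Gbp11 (43.8 ± 38.4 FPKM), whose lowest and highest libraries held 12.2 and 147 FPKM.

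None of the 76 members passed the test in any comparison. The test was edgeR's quasi-likelihood F test over 20213 genes with Benjamini-Hochberg adjustment and a threshold of 0.05. For ablation at 22 °C, 0 of 76 members against 0.094% of all genes were called, and 5 members (6.58%) had an unadjusted p under 0.05 against 8.34% of all genes. For ablation at 30 °C, 0 members against 0.0% of genes were called, and 6 members (7.89%) against 6.96% of genes had an unadjusted p under 0.05. Both shares of members lay near the background.

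For temperature in controls, 0 members against 0.0346% of genes were called and 9 members (11.8%) against 12.6% of genes had an unadjusted p under 0.05. For temperature in ablated mice, 0 members against 0.0346% of genes were called, and 17 members (22.4%) against 9.78% of genes had an unadjusted p under 0.05. Of these 17, 10 were higher at 22 °C and 7 higher at 30 °C, against 5.02% and 4.76% of genes. For the difference between temperatures in the ablation effect, 0 members against 0.0% of genes were called and 9 (11.8%) against 7.0% of genes had an unadjusted p under 0.05. The comparisons share arms: the 22 °C ablated mice enter both the ablation and the temperature comparison, so their values are given side by side and not as separate evidence. DESeq2 called 0 members for ablation at either temperature, for temperature in ablated mice and for the difference of the ablation effect, and 2 (H2-M2 and H2-Q6) for temperature in controls. limma voom called 0 in each of these. In edgeR, calls depended on the filter on low counts. Without it, edgeR called Gbp11, H2-Aa, H2-Ab1, H2-Eb1 and H2-Q7 for ablation at 22 °C, and these 5 with H2-Q1 for temperature in ablated mice. The log2 fold changes were close to those with the filter and the SEs were smaller. DESeq2, with 0 members called in both comparisons, was also run without that filter.

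**Figure D1:**
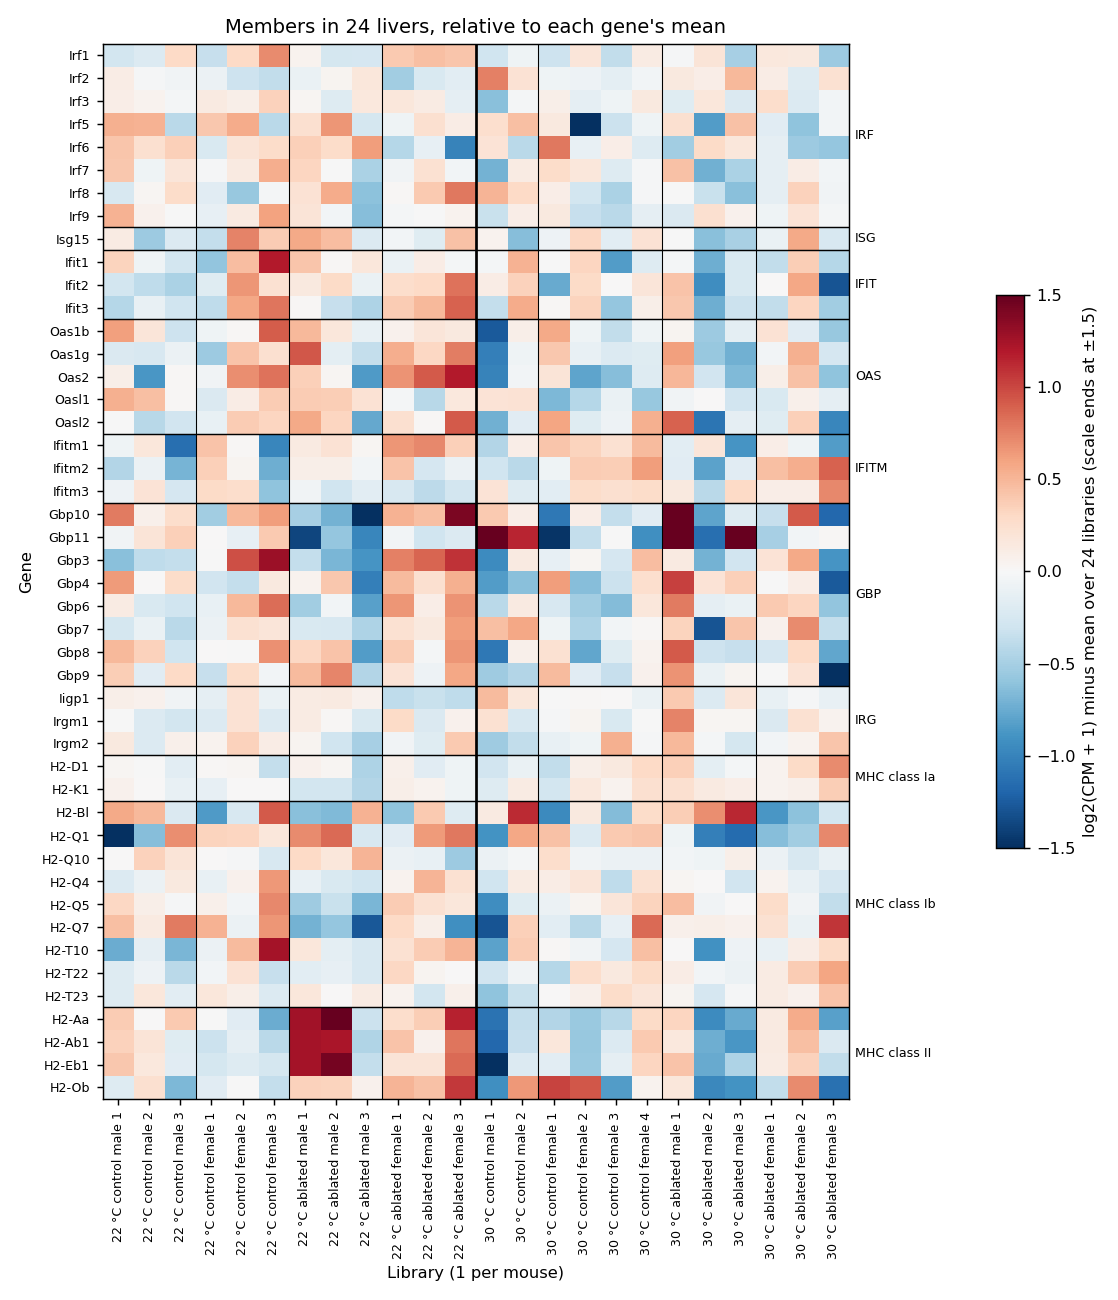
Rows are the 46 members of the named roles with a mean of at least 5 CPM, columns the 24 livers, and colour the log2(CPM + 1) minus the gene's mean over all libraries, with the scale ended at 1.5 (8 values lie past it). H2-Aa, H2-Ab1 and H2-Eb1 are highest in 22 °C ablated males 1 and 2 and female 3, and Gbp11 in 4 of the 5 males at 30 °C. H2-Ob is not highest in those 2 males.

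**Figure D2:**
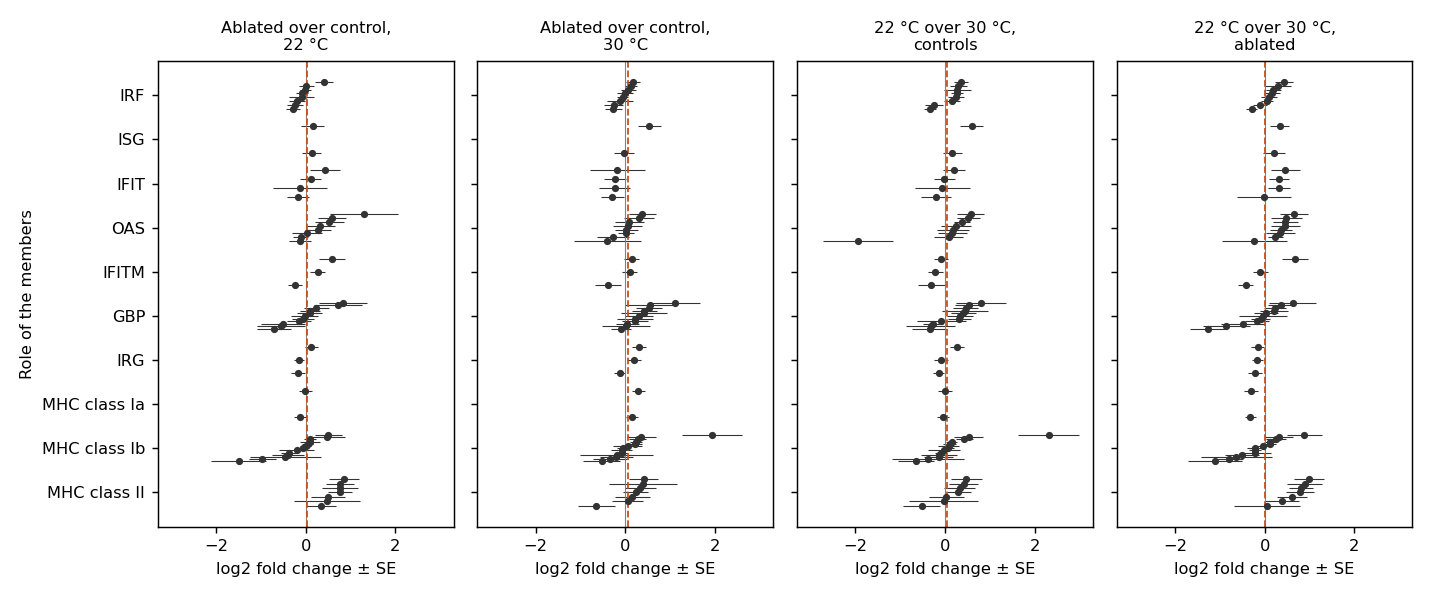
Each point is 1 of 61 members with a mean of at least 1 CPM, placed by its log2 fold change with its SE and grouped by role, for the 4 main comparisons. The dashed line is the median of all 20213 genes, and every class II member drawn lies to its right for ablation at 22 °C.

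Interferons themselves were barely detected. Of 14 interferon genes looked for, Ifng held 38 reads over 6 libraries and Ifnk 34 reads over 3 libraries. The other 12 had no row under their names in the deposited tables. The receptors and JAK-STAT genes were all measured (15 of 15), and 0 were called in any comparison. For ablation at 22 °C their median log2 fold change was 0.21. Against 8.34% of all genes in either direction, 4 members were higher and 2 lower at an unadjusted p under 0.05. Among these, Usp18, which switches off the type I receptor, stood at 0.61 ± 0.20 (log2 fold change ± SE; adjusted p = 0.327), Ifngr1, a chain of the interferon gamma receptor, at 0.54 ± 0.19 (adjusted p = 0.399), and Stat2 at -0.53 ± 0.18 (adjusted p = 0.351). The members of the signalling list thus lay on both sides of 0. The lowest p of that list was that of Il10rb, ahead of Usp18 and Stat2.

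Of the regulatory factors, Irf7 amplifies the type I response and Irf9 is a DNA-binding subunit of the complex at the ISRE. Irf7 ranged from 57.8 to 89.1 CPM with a median of 67.8 in 22 °C controls and from 43.4 to 76.0 CPM with a median of 59.6 in 22 °C ablated mice. At 30 °C it ranged from 36.7 to 73.9 CPM with a median of 63.0 in controls and from 36.4 to 82.6 CPM with a median of 57.1 in ablated mice. All 4 ranges overlapped, and the log2 fold change on ablation was -0.20 ± 0.18 at 22 °C (adjusted p = 0.848) and -0.01 ± 0.18 at 30 °C (adjusted p = 1). Irf9 averaged 54.7 ± 9.74 CPM (SD, n = 6) in 22 °C ablated mice and 66.6 ± 14.2 CPM in 22 °C controls, which gave -0.29 ± 0.15 on the log2 scale, not past the test. Between temperatures in controls Irf9 stood at 0.37 ± 0.16 (adjusted p = 0.341).

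Irf2, which competes with Irf1 at target promoters, averaged 56.4 ± 7.25 CPM in 22 °C controls and 67.4 ± 18.4 CPM in 30 °C controls, giving -0.33 ± 0.13 on the log2 scale (adjusted p = 0.293). The highest Irf2 library was 30 °C control male 1 at 103 CPM. Without it the log2 fold change was -0.18, and without control male 2 it was -0.45 with an adjusted p of 0.0421, from a fit with 1 male in that arm, so this value rests on that pair. In ablated mice, Irf2 averaged 56.1 ± 9.13 CPM at 22 °C and 68.2 ± 10.5 CPM at 30 °C (log2 fold change -0.29 ± 0.12, adjusted p = 0.437). Irf1 differed little on ablation, at 0.01 ± 0.17 at 22 °C and 0.07 ± 0.17 at 30 °C. Irf8, a factor of the myeloid lineage, stood at 0.41 ± 0.20 for ablation at 22 °C (adjusted p = 0.598).

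Ifit3, a partner of Ifit1 in binding foreign RNA, ranged from 22.4 to 53.6 CPM (median 26.3) in 22 °C controls, from 21.7 to 56.8 (median 35.4) in 22 °C ablated mice, from 20 to 45.1 (median 31.6) in 30 °C controls and from 17.9 to 40.5 (median 23.7) in 30 °C ablated mice. The 4 ranges lay over each other. Its log2 fold change on ablation was 0.11 ± 0.23 at 22 °C and -0.23 ± 0.24 at 30 °C. Ifit1 stood at -0.17 ± 0.24 and -0.29 ± 0.25 in the same 2 comparisons, with 2 SE on either side reaching from -0.66 to 0.32 and from -0.79 to 0.22. Isg15, a ubiquitin-like modifier, stood at 0.14 ± 0.21 and -0.03 ± 0.22. All 6 tested IFIT genes had a negative sign for ablation at 30 °C (median -0.26 against 0.05 for all genes), and 4 of 6 had a positive sign at 22 °C (median 0.12 against 0.02). The direction at 30 °C turned without 30 °C control male 2, to an IFIT median of 0.14 with 4 of 6 positive, and without control male 1 it was -0.54. In the first of these fits Ifit3b was called (adjusted p = 0.00636), with the remaining male at 0 reads, so no fold is given.

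The oligoadenylate synthetases make the second messenger that activates RNase L. Their medians were 0.30 for ablation at 22 °C (6 of 8 positive) and 0.42 for temperature in ablated mice (7 of 8 positive), against 0.02 and 0.00 for all genes. Oas1a averaged 6.23 ± 2.59 CPM in 22 °C ablated mice, 4.27 ± 1.45 CPM in 22 °C controls and 4.06 ± 1.63 CPM in 30 °C ablated mice. Its log2 fold change was 0.58 ± 0.31 on ablation at 22 °C (adjusted p = 0.637) and 0.65 ± 0.31 between temperatures in ablated mice (adjusted p = 0.495). Oas3 was low, at 0.641 ± 0.531 CPM in 22 °C controls and 2.12 ± 1.45 CPM in 30 °C controls, a log2 difference of -1.93 ± 0.78 (adjusted p = 0.322) that was -0.83 without 30 °C control male 1. Of 51 other interferon-induced genes, 50 were tested and 0 were called. The chemokine Cxcl9, a target of interferon gamma, had the lowest p of that list for ablation at 22 °C, at 1.46 ± 0.34 (log2; adjusted p = 0.122), and Cxcl10 stood at 1.45 ± 0.43 (adjusted p = 0.251).

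Ifitm3 differed most between the ablated mice of the 2 temperatures. It ranged from 369 to 466 CPM (median 405) at 22 °C and from 367 to 800 CPM (median 527) at 30 °C. Ablated male 2 at 30 °C lay below all 22 °C ablated mice and the other 5 above them. The log2 fold change (22 °C over 30 °C) was -0.43 ± 0.16 (adjusted p = 0.378), and all 6 of the 22 °C mice lay below the mean of their sex at 30 °C. In controls it was -0.09 ± 0.17 (adjusted p = 0.907).

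Among the GTPases, Gbp11 (GRCm39, chromosome 5, 105470908 to 105494338, minus strand) stood out by its distribution. In males at 30 °C it was at 399, 41.9 and 378 CPM in ablated males 1, 2 and 3 and at 341 and 206 CPM in control males 1 and 2. In females at 30 °C it ranged from 32.9 to 93.6 CPM. At 22 °C, males and females together ranged from 35.0 to 89.9 CPM when ablated (median 68.5) and from 84.7 to 122 CPM in controls (median 99.5). For ablation at 22 °C its log2 fold change was -0.71 ± 0.38 (adjusted p = 0.641), with all 6 ablated mice below the control mean of their sex. Thus 4 of the 5 males at 30 °C lay above the other 20 libraries, and the exception, ablated male 2, was an Ai9 mouse. The 4 high males were of 2 lines, Ai39 x BAC-AT1A-Cre (ablated male 1, control male 2) and BAC-AT1A-Cre alone (ablated male 3, control male 1).

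The log2 fold change of Gbp11 between temperatures in ablated mice was -1.27 ± 0.39 (22 °C over 30 °C; adjusted p = 0.290), the lowest p among members in that comparison. Without 30 °C ablated male 1 it was -1.08 (adjusted p = 0.380), without male 3 -1.11 (adjusted p = 0.554) and without male 2, the male of low Gbp11, -1.52 (adjusted p = 0.00219), so the last value follows from removing the exception. Without the filter on low counts the edgeR value was -1.28 with an adjusted p of 1.66e-13, while DESeq2, also without that filter, did not call Gbp11 there. In a comparison added after these values were seen, the temperature effect in females minus that in males was 2.29 ± 0.55 for Gbp11 (adjusted p = 0.170). In that comparison 0 of 76 members against 0.0198% of genes were called, and 13 members (17.1%) against 10.9% of genes had an unadjusted p under 0.05. Of these, 8 were higher (against 4.15% of genes), and 5 of the 8 were GBP genes (Gbp11, Gbp3, Gbp6, Gbp7 and Gbp10). DESeq2 called Gbp11 there (adjusted p = 0.00854) and limma voom did not (adjusted p = 0.277). Without 30 °C control male 1 it was 2.07, without 30 °C control male 2 it was 2.44 (adjusted p = 0.0415, with 1 male left in the arm), and without 30 °C ablated male 2, the exception, it was 2.54 (adjusted p = 7.07e-05).

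The IRG gene Iigp1, a GTPase that disrupts pathogen vacuoles, was steadier. It ranged from 283 to 361 CPM in 22 °C controls, from 237 to 342 in 22 °C ablated mice, from 289 to 432 in 30 °C controls and from 268 to 409 in 30 °C ablated mice. Its log2 fold changes stayed between -0.16 and -0.12 in the 4 main comparisons, with SEs of 0.12. In the 22 °C ablated group the 3 females (239, 245 and 237 CPM) lay below the 3 males (337, 342 and 323 CPM). Gbp2 stood at 0.84 ± 0.54 for ablation at 22 °C and Gbp7 at 0.09 ± 0.22, neither past the test.

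**Figure D3:**
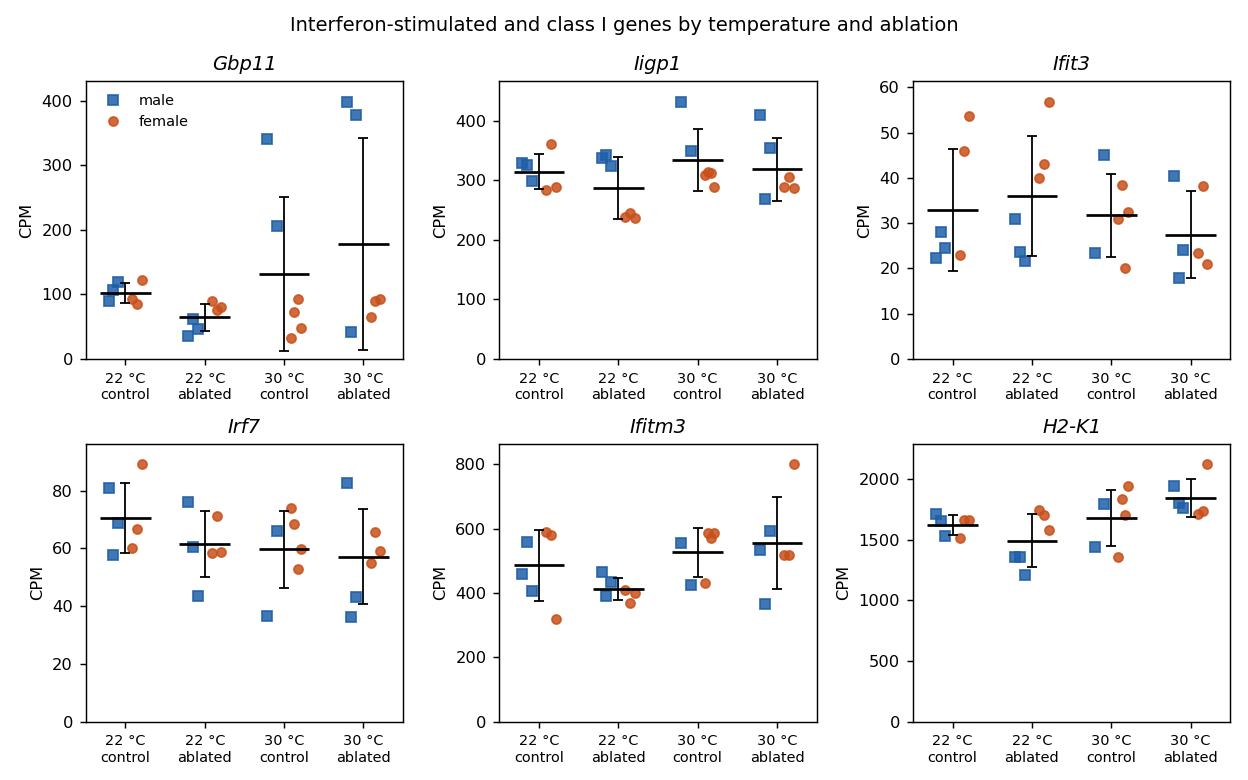
Panels give CPM of 6 members in each liver (squares males, circles females), with the mean as a line and the SD as bars over the 6 mice of a group. Gbp11 is above 200 CPM in 4 of 5 males at 30 °C and in no other library, while Ifit3 and Irf7 overlap across all groups.

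Classical class I genes present cellular peptides to CD8+ T cells. H2-K1 (GRCm39, chromosome 17, 34214991 to 34219321, minus strand) ranged from 1213 to 1744 CPM (median 1470) in 22 °C ablated mice and from 1713 to 2121 CPM (median 1780) in 30 °C ablated mice. Of the 22 °C group, female 1 alone reached into the 30 °C range. The log2 fold change was -0.32 ± 0.13 (adjusted p = 0.399), with all 6 mice of the 22 °C group below the mean of their sex at 30 °C. H2-D1 stood at -0.30 ± 0.15 (adjusted p = 0.500) in the same comparison. In controls the 2 genes stood at -0.04 ± 0.13 and -0.00 ± 0.15. The ablation effect at 22 °C minus that at 30 °C was -0.28 ± 0.18 for H2-K1 (adjusted p = 0.807) and -0.30 ± 0.21 for H2-D1 (adjusted p = 0.838), so a different effect at the 2 temperatures was not shown. H2-Q10 was at 2419 ± 596 CPM in 22 °C ablated mice and 2388 ± 338 CPM in 22 °C controls, a log2 fold change of -0.00 ± 0.13.

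Other class Ib genes gave the lowest p for several comparisons. H2-Q7 was at 8.21, 9.02 and 5.20 CPM in the ablated males and 17.5, 14.9 and 6.91 CPM in the ablated females at 22 °C, and it ranged from 13.1 to 24.7 CPM in 22 °C controls. The 3 ablated males and female 3 lay below every control, and females 1 and 2 lay within the control range. The log2 fold change was -0.97 ± 0.31 (adjusted p = 0.339), and all 6 ablated mice were below the control mean of their sex. At 30 °C it averaged 17.4 ± 6.57 CPM in ablated mice and 14.1 ± 7.19 CPM in controls, and the difference of the ablation effect was -1.33 ± 0.44 (adjusted p = 0.589). That difference also rested on the 30 °C control males: it was -1.02 without male 1 and -1.94 without male 2 (adjusted p = 0.0165, with 1 male left in the arm).

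H2-Q6, a near copy of H2-Q7 with few reads, ran the same way. It averaged 0.905 ± 0.510 CPM in 22 °C ablated mice and 2.82 ± 2.43 CPM in their controls, and 1.88 ± 1.04 CPM in 30 °C ablated mice and 0.812 ± 0.766 CPM in theirs. The difference of the ablation effect was -3.42 ± 0.91 (adjusted p = 0.428). Reads of these copies may have been divided between them, so their values are uncertain one by one. H2-T23, the mouse counterpart of HLA-E, stood at 0.04 ± 0.12 and 0.23 ± 0.13 for ablation at 22 °C and 30 °C. H2-M2 was at 0 in 5 of 6 of the 30 °C controls, and no fold is given.

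Of the antigen processing genes and MHC regulators, 22 of 22 were tested and 0 were called. For ablation at 22 °C, 2 were higher and 1 lower at an unadjusted p under 0.05, against 8.34% of all genes in either direction. Their median log2 fold change was -0.02, and Ctss, Cd74 and Calr had the lowest p. B2m, the class I light chain, stood at -0.07 ± 0.13 for ablation at 22 °C, Tap1, a peptide transporter, at -0.13 ± 0.14, and Nlrc5, the class I coactivator, at -0.26 ± 0.13 (adjusted p = 0.604).

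The class II genes were the role with the largest median for ablation at 22 °C and for temperature in ablated mice. H2-Aa and H2-Ab1 encode the alpha and beta chains of I-A, and H2-Eb1 the beta chain of I-E, which present extracellular peptides to CD4+ T cells. H2-Aa (GRCm39, chromosome 17, 34501718 to 34506797, minus strand) was at 71.2, 83.7 and 23.1 CPM in ablated males 1, 2 and 3 and at 35.1, 38.0 and 65.7 CPM in ablated females 1, 2 and 3 at 22 °C. It ranged from 16.96 to 38.6 CPM (median 29.0) in 22 °C controls, from 14.7 to 43.1 (median 24.4) in 30 °C ablated mice and from 12.9 to 35.7 (median 21.4) in 30 °C controls. Ablated males 1 and 2 and female 3 at 22 °C lay above all other 21 libraries, and the other 3 of that group (male 3 and females 1 and 2) lay within the range of the 22 °C controls.

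The log2 fold change of H2-Aa on ablation at 22 °C was 0.85 ± 0.33 (adjusted p = 0.490), with 5 of 6 ablated mice above the control mean of their sex. H2-Ab1 was at 57.6, 57.0 and 17.1 CPM in ablated males and 32.3, 24.9 and 42.0 CPM in ablated females at 22 °C, against 17.7 to 30.4 CPM in controls. Its log2 fold change was 0.76 ± 0.27 (adjusted p = 0.430), and without ablated male 3 it was 0.95 with an adjusted p of 0.0487. H2-Eb1 was at 66.1, 75.6 and 21.1 CPM in ablated males and 31.5, 31.5 and 50.03 CPM in ablated females, against 22.5 to 36.6 CPM in controls, giving 0.77 ± 0.31 on the log2 scale (adjusted p = 0.509). The same 3 mice were highest for all 3 chains, and ablated male 3 was the lowest ablated mouse for all 3.

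All 9 class II members, H2-DMa, H2-DMb1, H2-DMb2, H2-Oa, H2-Ob and H2-Eb2 included, had a positive sign for ablation at 22 °C, with a median of 0.76 against 0.02 for all 20213 genes. H2-Eb2 held 33 reads in all and passed the filter on low counts only through 22 °C ablated males 2 and 3 (9 and 13 reads). Its sign followed from that and adds nothing to the count, and the median of 0.76 includes it. H2-DMa, which helps load peptides, was lower in effect at 0.33 ± 0.33. For ablation at 30 °C the class II median was 0.15 against 0.05 for all genes, with 6 of 9 positive. H2-Aa there stood at 0.33 ± 0.34, H2-Ab1 at 0.24 ± 0.28 and H2-Eb1 at 0.41 ± 0.33. The ablation effect at 22 °C minus that at 30 °C was 0.52 ± 0.47 for H2-Aa (adjusted p = 0.912), so it was not shown that the temperatures differ.

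Between temperatures in ablated mice, all 9 class II members again had a positive sign (22 °C over 30 °C), with a median of 0.82 against 0.00. H2-Eb2, at 0 CPM in all 30 °C libraries, again adds nothing to the count, and the median of 0.82 includes it. H2-Aa stood at 1.00 ± 0.33 (adjusted p = 0.358), H2-Ab1 at 0.82 ± 0.27 (adjusted p = 0.335) and H2-Eb1 at 0.78 ± 0.31 (adjusted p = 0.428). In controls the class II median was 0.33 against 0.05 and ran from 0.01 (Ai39 x BAC-AT1A-Cre mice alone) to 0.56 (without 30 °C control male 2) over 21 alternatives. H2-Aa there stood at 0.48 ± 0.34 (adjusted p = 0.586). Without the filter on low counts edgeR called H2-Aa in both comparisons, with adjusted p-values of 1.76e-05 (ablation at 22 °C) and 1.59e-07 (temperature in ablated mice). DESeq2, also run without that filter, called it in neither. These values moved with a term for Cre and in a fit of mice of 1 line alone. With a term for Cre, H2-Aa on ablation at 22 °C was 0.42 and the class II median 0.37 with 7 of 9 positive, where 1 of 6 controls was Cre+. Among Ai39 x BAC-AT1A-Cre mice alone, H2-Aa between temperatures in ablated mice was 0.44 and the median 0.34 with 7 of 8 positive. That fit also took sex as an additive term, so the mice and the model changed together.

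Markers of the cells that make class II varied in the same arms, as did those of other cell types. Cd74, the invariant chain bound by class II in the cell, stood at 0.95 ± 0.38 for ablation at 22 °C (adjusted p = 0.508), and Ciita at 0.65 ± 0.40 (adjusted p = 0.700). Over 12 Kupffer cell and macrophage markers, all of them tested, the summed level ran from 103 to 402 CPM (median 318) in 22 °C ablated mice, from 211 to 266 (median 241) in 22 °C controls, from 144 to 398 (median 233) in 30 °C ablated mice and from 106 to 317 (median 239) in 30 °C controls. The lowest of the 22 °C ablated mice was again male 3. The median log2 fold change of these markers for ablation at 22 °C was 0.38. At an unadjusted p under 0.05, 2 of 12 were higher, against 8.34% of all genes in either direction.

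For 10 dendritic cell markers the summed level was 19.7 to 36.1 CPM in 22 °C ablated mice and 18.4 to 30.8 CPM in their controls, with a median log2 fold change of 0.85. For 8 B cell markers it was 21.3 to 67.1 CPM and 22.5 to 37.1 CPM (median 0.51), and for 14 T and NK cell markers 5.14 to 19.8 CPM and 5.94 to 10.7 CPM (median 0.45). The lists of other cell types had medians for ablation at 22 °C of 0.67 (neutrophils), 0.40 (cholangiocytes and stellate cells), 0.24 (endothelial cells) and -0.17 (hepatocytes). A positive median was thus not confined to cells that make class II. No marker list had a gene called in these comparisons. Between temperatures in ablated mice most marker lists were also positive in median: 0.77 for dendritic cells (2 of 10 at an unadjusted p under 0.05), 0.73 for B cells (3 of 8), 0.77 for T and NK cells (0 of 14), 0.50 for endothelial cells (4 of 9), 0.53 for cholangiocytes and stellate cells (3 of 9) and 0.23 for macrophages (0 of 12). The genes counted in these lists were higher at 22 °C, as were 5.02% of all genes at that threshold. The neutrophil list (-1.63) and the hepatocyte list (-0.25) were negative in median there. In whole liver, more cells of a type and more RNA per cell cannot be told apart, and the part of these cells in the class II values was not tested.

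As with the lists above, the summed levels of the other lists overlapped between arms. Endothelial markers (9 of 9 tested) summed to 204 to 311 CPM in 22 °C ablated mice, 204 to 262 CPM in 22 °C controls, 89.4 to 266 CPM in 30 °C ablated mice and 163 to 285 CPM in 30 °C controls. Cholangiocyte and stellate markers (9 of 9 tested) summed to 126 to 190 CPM, 74.7 to 150 CPM, 40.5 to 127 CPM and 87.2 to 153 CPM in the same arms. Their ranges in the 22 °C and 30 °C ablated mice shared only 126 to 127 CPM. Neutrophil markers (5 of 7 tested) summed to 3.36 to 13.1 CPM, 4.63 to 8.50 CPM, 4.32 to 47.5 CPM and 3.49 to 9.59 CPM. Ablated female 3 at 30 °C, an Ai9 mouse, held the 89.4, the 40.5 and the 47.5 CPM, where the nearest mice of its group were at 178, 68.7 and 10.997 CPM, and it had the lowest mitochondrial share of all libraries (7.53%). Ablated female 3 at 30 °C was also the lowest library for dendritic cell markers, at 10.4 CPM, with the nearest of its group at 17.1 CPM. Sensors of foreign nucleic acid (9 of 10 tested) had a median log2 fold change of 0.01 for ablation at 22 °C.

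**Figure D4:**
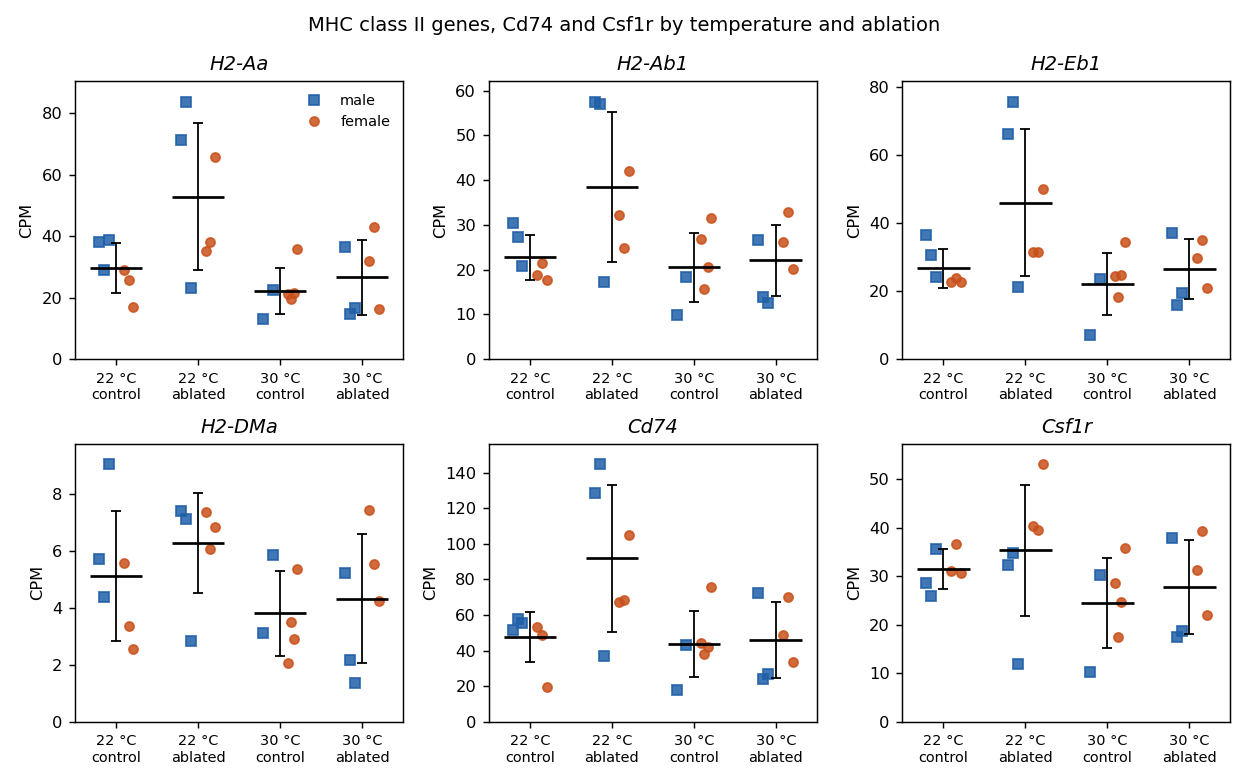
Panels give CPM of 4 class II genes, Cd74 and Csf1r in each liver (squares males, circles females), with the mean as a line and the SD as bars over the 6 mice of a group. Males 1 and 2 and female 3 of the 22 °C ablated group lie above all other libraries for H2-Aa, H2-Ab1, H2-Eb1 and Cd74, and male 3 is the lowest of that group in every panel.

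Members co-varied between mice of one group. Over 24 libraries, with each value taken as its deviation from the mean of its group, 25 pairs were computed and p-values came from 100000 permutations within groups. H2-Aa followed Cd74 (Pearson r = 0.94, Spearman rho = 0.95, permutation p = 6e-05 and 4e-05, adjusted p = 0.0005 and 0.000333), and r was 0.91 without the 2 libraries farthest from the median of H2-Aa. It followed the macrophage receptor gene Csf1r likewise (r = 0.89, rho = 0.91, permutation p = 3e-05 for both, adjusted p = 0.0005 and 0.000333; r = 0.84 without those 2). For the Kupffer cell marker Clec4f, r was 0.65 (rho = 0.63, permutation p = 0.0111 and 0.0158, adjusted p = 0.0199 and 0.0263; r = 0.52 without those 2). For the T cell gene Cd3e, r was 0.42 (rho = 0.44, permutation p = 0.0843 and 0.0865, adjusted p = 0.111 and 0.12).

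Ifit3 followed Ifit1 (r = 0.84, rho = 0.81, permutation p = 0.00027 and 0.00058, adjusted p = 0.000964 and 0.00145; r = 0.81 without the 2 farthest) and Mx1, another interferon-induced GTPase (r = 0.83, rho = 0.81, permutation p = 0.0001 and 0.00029, adjusted p = 0.0005 and 0.00121; r = 0.83). H2-K1 followed H2-D1 (r = 0.76, rho = 0.74, permutation p = 0.00159 and 0.00083, adjusted p = 0.00331 and 0.00189; r = 0.70) but its relation to Csf1r did not pass (r = 0.24, rho = 0.24, permutation p = 0.438 and 0.424, adjusted p = 0.438 and 0.424). Gbp11 and Iigp1 had r = 0.65 (rho = 0.47, permutation p = 0.113 and 0.0941, adjusted p = 0.141 and 0.124), which was 0.19 without the 2 farthest libraries and so rested on those. For Ifit3 with Csf1r, r was 0.55 (rho = 0.56, permutation p = 0.0312 and 0.028, adjusted p = 0.0459 and 0.0437), so following Csf1r was not confined to class II. That r was 0.53 without the 2 farthest libraries. The pairs share libraries and depth.

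**Figure D5:**
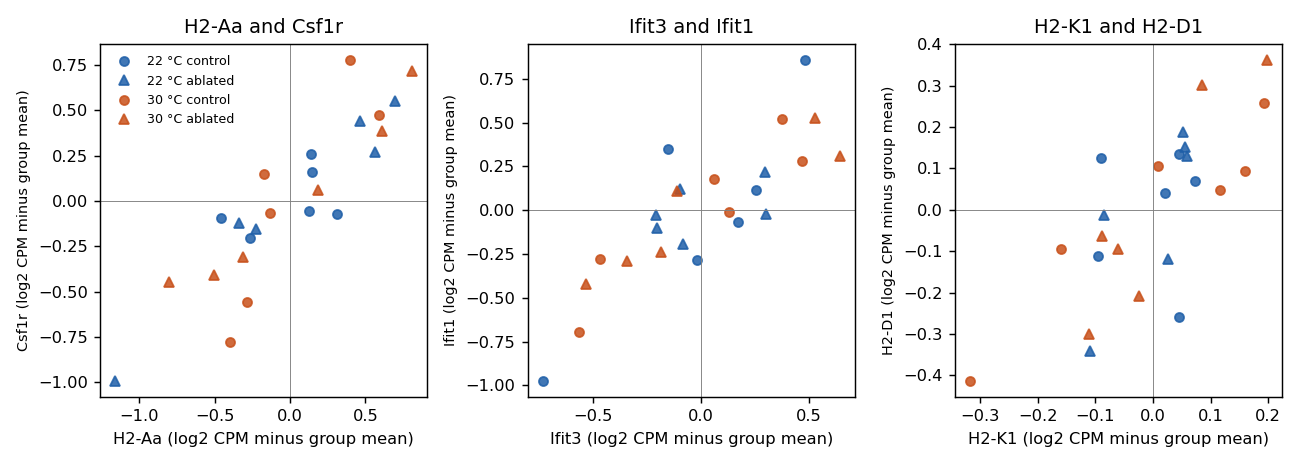
Each point is 1 liver, with the log2 CPM of 2 genes given as the deviation from the mean of its group of temperature, ablation and sex. The 24 points lie along a rising line for H2-Aa with Csf1r (r = 0.89), Ifit3 with Ifit1 (r = 0.84) and H2-K1 with H2-D1 (r = 0.76).

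Between the sexes in controls (7 females, 5 males), 0 of 76 members against 2.81% of genes were called, and 16 members (21.1%) against 15.2% of genes had an unadjusted p under 0.05. DESeq2 called 4 members there (Irf2, Gbp3, H2-Q6 and H2-T23) and limma voom 0. Irf2 had the lowest p, at 54.8 ± 4.93 CPM in females and 71.9 ± 18.2 CPM in males, a log2 fold change (female over male) of -0.44 ± 0.12 (adjusted p = 0.0518). Without 30 °C control male 1 it was -0.28, and without male 2 it was -0.55 (adjusted p = 0.00923, with 1 male left in the arm). Gbp3 averaged 34.2 ± 15.7 CPM in females and 18.7 ± 5.60 CPM in males (0.86 ± 0.26, adjusted p = 0.0943), and its value was 0.64 without 30 °C control male 1 and 1.21 without male 2 (adjusted p = 0.0163, with 1 male left). Ifitm2 averaged 94.6 ± 25.7 CPM and 63.6 ± 9.87 CPM (0.53 ± 0.17, adjusted p = 0.108). The ranges of females and males overlapped for each of these 3.

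Within groups of temperature, ablation and sex, the median SD of log2 CPM was 0.55 over the 76 tested members and 0.61 over all genes tested. Among genes with a mean of at least 10 CPM it was 0.35 for 43 members and 0.28 for 7922 genes. The most variable members were low: Ifitm5 had a within-group SD of 1.74 at a mean of 0.448 CPM, and Irf4, a factor of lymphocytes, one of 1.63 at 0.429 CPM. H2-Oa, H2-M5, Oas3 and Ifitm10 followed, with SDs of 1.48, 1.40, 1.39 and 1.35.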

How the data were processed

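The submitters sequenced poly-A RNA of 24 mouse livers, 1 library per mouse. The submitters' processing notes name CASAVA, HISAT2 and DESeq2 and the build GRCm39. The sources used here give no counter, annotation or strandedness. Of 3 deposited tables, the count columns hold raw reads per gene and were the basis of every test. The deposited FPKM are counts scaled by gene length and library total, up to a constant per library, and were used for levels between genes. The deposited signal columns are counts divided by a size factor per library and were not tested. The deposited gene length, in bases, is of another kind and was read as an annotation. The tables were joined on the gene identifier, and 40326 values of genes absent from a table were set to 0.

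The members and gene lists were chosen with earlier results of these data known. Counts were filtered with filterByExpr, scaled by TMM and tested with edgeR 4.0.16 in R 4.3.3 on 8 group means of temperature, ablation and sex (16 residual degrees of freedom). Each effect is a log2 fold change, the mean of that in males and that in females, and its SE was derived from the F statistic. All tests were two-sided, and p was adjusted over 20213 genes. The sex difference of the temperature effect was added after values were seen. CPM use TMM-scaled library sizes. Correlations use log2 CPM with a prior count of 2. The SEs, and the intervals built from them, cover both counting error and the spread between mice. Named genes were the 5 members of lowest p in each comparison, a list of 21 core members, the 6 most variable, the 5 of highest CPM and up to 3 of lowest p from each accompanying list. Irf8, B2m, Tap1, Nlrc5, Ciita, Csf1r and the partners in correlations fall outside this rule or were chosen with values seen. Alternatives were DESeq2 1.42.0 with its size factors, limma 3.58.1 voom, no filter, a replicate block, sex as an additive term, a Cre term, Ai39 x BAC-AT1A-Cre mice alone, only the groups compared and each library left out. The DESeq2 fit also went without filterByExpr. The fit of Ai39 x BAC-AT1A-Cre mice alone also took sex as an additive term, in place of the 8 group means. The procedure was tested on simulated counts. Some items are not reported here.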

Additional observations from a re-analysis of the deposited data

Results flagged for a closer look

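Among 41 named members, 164 groups of 6 mice (1 temperature and 1 treatment) were searched for a library far from the others on the log2(CPM + 1) scale, and 13 were found. The rule flags about 1 in 20 groups when all 6 values come from a single normal distribution. The groups mix the sexes, some members lie near 0 and some were picked for their spread, so that rate need not hold here. In 22 °C ablated male 3, Irf9 was at 36.2 CPM (others 55.3 to 65.0), H2-DMa at 2.84 CPM (others 6.07 to 7.39) and Oas3 at 0 CPM (others 1.24 to 2.53). In other 22 °C ablated mice, Irf2bp2 was at 44.0 CPM in male 2 (others 23.5 to 29.7) and H2-T23 at 208 CPM in female 2 (others 253 to 283). Among 22 °C controls, H2-Oa was at 1.02 CPM in female 2 (others 0.135 to 0.373).

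In 30 °C ablated mice, H2-Q7 was at 30.6 CPM in female 3 (others 12.97 to 16.6), H2-T10 at 6.81 CPM in male 2 (others 12.6 to 16.9) and Isg20l2 at 13.4 CPM in female 1 (others 17.9 to 21). In 30 °C controls, Isg20l2 was at 37.5 CPM in male 1 (others 16.9 to 20.97), H2-Q10 at 2761 CPM in female 1 (others 2158 to 2243), H2-M5 at 0.611 CPM in male 2 (others 0 to 0.128) and H2-M2 at 0.105 CPM in female 4 (others 0). Female 3 and male 2 of the ablated 30 °C group are Ai9 mice. The part of line in these values was not tested.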

How the results depend on the processing

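Of 4084 values of single members under alternatives (175 results), 3870 kept their direction and were not called, 42 were newly called, 172 changed sign without a call and 0 reversed a call. Without the filter on low counts, the members called were 5 for ablation at 22 °C, 6 for temperature in ablated mice, 4 for the difference of the ablation effect, 4 for sex in controls and 7 for the sex difference of the temperature effect, and those at an unadjusted p under 0.05 were 12, 11, 14 and 15 for ablation at 22 °C, ablation at 30 °C, temperature in controls and the difference of the ablation effect. The cause was not tested. These counts and those below are of members alone, without the share of all genes under the same setting. They show how calls depend on the fit and are not a result about the members. With only the groups compared in the fit, 1 member was called for ablation at 22 °C and 1 for sex (Gbp11 in both), and 11 and 2 had an unadjusted p under 0.05 for ablation at 22 °C and 30 °C. DESeq2 called 2 for temperature in controls, 4 for sex and 1 for the sex difference of the temperature effect, and its size factors in edgeR called 1 for sex (Irf2). At an unadjusted p under 0.05, ablation at 30 °C had 3 members with limma voom, 3 with sex additive, 2 with a Cre term and 1 in Ai39 x BAC-AT1A-Cre mice alone. In those mice temperature in controls had 4, temperature in ablated mice 3 and the difference of the ablation effect 5, as it did with sex additive (5).

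With each library left out in turn, members called ran from 0 to 1 (ablation at 22 °C), 0 to 1 (ablation at 30 °C), 0 to 6 (temperature in controls), 0 to 1 (temperature in ablated mice), 0 to 2 (difference of the ablation effect), 0 to 5 (sex) and 0 to 2 (sex difference of the temperature effect). Those at an unadjusted p under 0.05 ran from 4 to 9, 4 to 9, 4 to 18, 7 to 22, 5 to 10, 9 to 21 and 11 to 16 in the same order. The highest counts of members called came without 30 °C control male 2, except for ablation at 22 °C and temperature in ablated mice. All genes called ran from 0 to 1608 for temperature in controls.

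With the replicate number as a replicate block, 0 members were called in each of the 7 comparisons and no call changed. At an unadjusted p under 0.05 the block gave 7, 7, 10, 12, 8, 13 and 12 members in the order above. The numbers do not pair the mice: same-numbered libraries correlated at -0.0046 on average, and 6 of 24 libraries matched their own number best. With 6 mice in a group and lines and Cre unequal between groups, small effects could not be shown.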
